A study of Mus musculus with 6 samples.

Results

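The Ms4a genes encode small membrane proteins that cross the membrane 4 times, and 8 of them were examined in mouse aortas: Ms4a6d, Ms4a6b, Ms4a6c, Ms4a7, Ms4a4a, Ms4a4b, Ms4a4c and Ms4a14. They were taken by symbol from a table of read counts for 56748 genes; all 8 were found, and all 8 were among the 16377 genes with enough counts to test. The family was picked because Ms4a6d separates the groups in these same counts, so the difference in Ms4a6d is described here without a test. Bulk RNA sequencing had been done on 3 sST2-KO aortas, from mice without soluble ST2 (the secreted receptor form made from Il1rl1, which binds the cytokine IL-33), and on 3 WT aortas from their littermates. Mice of both groups were labelled ApoE-KO, were 6 months of age and had been given angiotensin II by osmotic minipump for 28 days, a regimen used to provoke aortic disease. The labels do not describe the sST2 allele, and nothing in them ties the libraries to separate litters or days.

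The Ms4a genes lie side by side on mouse chromosome 19. The founding member, Ms4a1, encodes the B cell antigen CD20, and Ms4a2 encodes the beta chain of the mast cell IgE receptor; most of the others are known from macrophages, monocytes or T cells. In human macrophages, MS4A4A is known to associate with the fungal receptor dectin-1, and variants near the human MS4A4A and MS4A6A genes are linked to the level of soluble TREM2, a lipid-sensing receptor of macrophages. In the angiotensin II model, macrophages and monocytes are known to gather in the aortic wall.

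Several members are near copies of one another, which bears on how reads could be assigned to them. The starts of their coding sequences (bases 1 to 120, from the transcripts of GENCODE release M21) are shown for the 2 sets of closest copies, with capitals at the positions where a set differs. The Ms4a6 set differed at 22 of these positions.
Ms4a6d: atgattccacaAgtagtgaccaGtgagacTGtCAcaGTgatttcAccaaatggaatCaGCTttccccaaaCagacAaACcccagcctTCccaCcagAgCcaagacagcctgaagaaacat
Ms4a6b: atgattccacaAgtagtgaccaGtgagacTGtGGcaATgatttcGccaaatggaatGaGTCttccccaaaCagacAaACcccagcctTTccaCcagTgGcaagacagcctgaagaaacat
Ms4a6c: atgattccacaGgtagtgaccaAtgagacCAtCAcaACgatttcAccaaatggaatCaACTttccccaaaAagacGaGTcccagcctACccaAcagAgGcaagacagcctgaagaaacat
The Ms4a4c and Ms4a4b pair differed at 9 positions.
Ms4a4c: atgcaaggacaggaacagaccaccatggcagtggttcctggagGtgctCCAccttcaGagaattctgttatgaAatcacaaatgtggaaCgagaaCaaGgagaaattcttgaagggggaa
Ms4a4b: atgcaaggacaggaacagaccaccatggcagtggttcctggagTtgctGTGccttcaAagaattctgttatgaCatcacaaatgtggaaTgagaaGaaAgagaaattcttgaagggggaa
Over the whole coding sequence, Ms4a4b and Ms4a4c were 91.74% identical and shared a run of 127 identical transcript bases. Ms4a6b and Ms4a6c were 86.43% identical, Ms4a6d and Ms4a6b 81.76%, and Ms4a6d and Ms4a6c 79.59%. No stretch of 100 bases was shared within the Ms4a6 set, but Ms4a6b and Ms4a6c shared a run of 96 and Ms4a6d and Ms4a6b one of 81. Of the stretches of 100 bases in the Ms4a4c transcript, 1.72% also occurred in Ms4a4b. Counts of these members could therefore have been split between copies, and the values of Ms4a4b and Ms4a4c are the least certain on this account.

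RefSeq promoters (GRCm38.p6, 250 bases before to 50 after the annotated start) were held for 7 of the 8 members, all but Ms4a6d. The promoters of the other close copies are shown. Capitals mark AGGAAGT or GAGGAA, letters bound by ETS factors such as PU.1, the master regulator of macrophage genes. The windows are chr19:11518309-11518608 for Ms4a6b, chr19:11469118-11469417 for Ms4a6c, chr19:11443308-11443607 for Ms4a4b and chr19:11407411-11407710 for Ms4a4c, all on the plus strand.
Ms4a6b: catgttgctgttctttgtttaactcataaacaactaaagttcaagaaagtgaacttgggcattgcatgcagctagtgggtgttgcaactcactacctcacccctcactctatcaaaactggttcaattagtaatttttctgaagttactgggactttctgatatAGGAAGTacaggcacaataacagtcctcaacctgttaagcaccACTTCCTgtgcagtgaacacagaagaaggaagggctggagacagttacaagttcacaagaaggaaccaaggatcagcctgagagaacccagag
Ms4a6c: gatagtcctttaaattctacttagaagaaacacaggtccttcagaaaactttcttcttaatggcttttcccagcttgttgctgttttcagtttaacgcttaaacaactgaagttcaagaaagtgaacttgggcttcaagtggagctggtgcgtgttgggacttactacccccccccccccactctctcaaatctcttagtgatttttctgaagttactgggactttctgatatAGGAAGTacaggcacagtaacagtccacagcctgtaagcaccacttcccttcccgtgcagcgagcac
Ms4a4b: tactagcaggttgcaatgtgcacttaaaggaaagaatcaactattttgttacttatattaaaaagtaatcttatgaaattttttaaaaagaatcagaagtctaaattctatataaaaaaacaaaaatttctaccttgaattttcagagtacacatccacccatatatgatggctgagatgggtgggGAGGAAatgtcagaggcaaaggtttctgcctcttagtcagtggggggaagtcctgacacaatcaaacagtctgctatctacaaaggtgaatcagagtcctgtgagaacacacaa
Ms4a4c: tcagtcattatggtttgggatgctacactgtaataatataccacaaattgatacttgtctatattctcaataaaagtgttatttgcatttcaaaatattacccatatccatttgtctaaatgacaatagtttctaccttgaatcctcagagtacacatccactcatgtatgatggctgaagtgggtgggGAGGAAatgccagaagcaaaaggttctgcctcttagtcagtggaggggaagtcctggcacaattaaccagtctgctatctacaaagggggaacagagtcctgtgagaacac
Aligned parts of the Ms4a6b and Ms4a6c promoters were 86.24% identical over 218 bases, and those of Ms4a4b and Ms4a4c 84.71% over 242 bases. AGGAAGT stood inside the longest run shared by Ms4a6b and Ms4a6c, of 48 bases. Ms4a7 had 2 annotated promoters, so the members had 8 in all. On either strand, AGGAAGT was found in 2 of the 8, in Ms4a6b and Ms4a6c, and in 9.35% of 32851 mouse promoters of the same length. GAGGAA, which can overlap AGGAAGT in the letters AGGAA, was found in 4 of the 8, in Ms4a7, Ms4a4b, Ms4a4c and Ms4a14, and in 28.3% of all promoters. The core of the interferon response element, GAAA followed by any 2 bases and GAAA again, was found in 0 of the 8 and in 3.44% of all. TATAAA was found in 2 of the 8, in Ms4a4b and Ms4a14, and in 13.6% of all. These matches only describe the letters in these windows.

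Libraries held 15615658 to 17988552 counts. The library of sST2-KO replicate 2 also carried airway transcripts. CPM are counts scaled to library size with TMM factors. The club cell gene Scgb1a1 reached 12598 CPM in it and at most 7.89 CPM in the other libraries. The library of WT replicate 3 carried liver transcripts, with 6205 CPM of the albumin gene Alb against at most 3.83 CPM elsewhere, and mitochondrial genes took 37.8% of the counts of WT replicate 2. Il1rl1 had 2.39, 2.82 and 4.86 CPM in sST2-KO and 2.81, 9.49 and 4.35 CPM in WT, so total Il1rl1 counts, which add the soluble and membrane forms, did not set the groups apart and give no check of the labels. Apoe was counted in every library in spite of the ApoE-KO label, at 172, 86.7 and 145 CPM in sST2-KO and 15.1, 11.6 and 507 CPM in WT. Each sST2-KO library thus had more Apoe than WT replicates 1 and 2. Without WT replicate 3 the log2 change of Apoe was 3.34 (adjusted p = 0.690 in edgeR). A difference in Apoe between the groups cannot be told apart here from that in sST2, and its part in the Ms4a differences was not tested. Smooth muscle genes were abundant, as in aorta, with the smooth muscle myosin gene Myh11 at 797 to 2529 CPM over the 6 libraries. Markers of airway and liver cells moved with single libraries and not with the groups. Several log2 changes are therefore also given without sST2-KO replicate 2, WT replicate 3 or both. Shares of the members and ratios to macrophage genes are given only with all 6 libraries.

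All 8 Ms4a genes were lower in TMM-scaled CPM in every sST2-KO aorta than in every WT aorta. Their summed level was 114, 67.0 and 96.4 CPM in sST2-KO replicates 1 to 3, against 274, 207 and 239 CPM in WT replicates 1 to 3. The means were 92.4 ± 23.6 CPM in sST2-KO and 240 ± 33.8 CPM in WT (SD, n = 3 each), so the sST2-KO mean was 38.5% of the WT mean. Groups without overlap in this direction were seen for 10% of all tested genes. No gene of the table passed the edgeR quasi-likelihood test at an adjusted p under 0.05 (0% called). At an unadjusted p under 0.05 there were 974 lower and 832 higher genes, 5.95% and 5.08% of those tested. Of the 7 members other than Ms4a6d, 7 were among the lower ones; since the family was picked on this contrast, nothing is read from that count. The median log2 change of the 8 was -1.33, beside 0.04 over all tested genes. Negative log2 changes were found for 8 of 8 members and 46.5% of tested genes. The weakest change of a member, -1.17, was matched or passed in the lower direction by 3.76% of tested genes. With Ms4a6d set aside, DESeq2 called 5 of the other 7 lower, all but Ms4a4a and Ms4a4b, with 1.35% of tested genes called lower. Weighted limma-voom called 1 of the 7, Ms4a6c, with 0.214% of genes called lower. In bulk tissue, fewer cells of a type and less RNA per cell cannot be told apart.

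**Figure D1:**
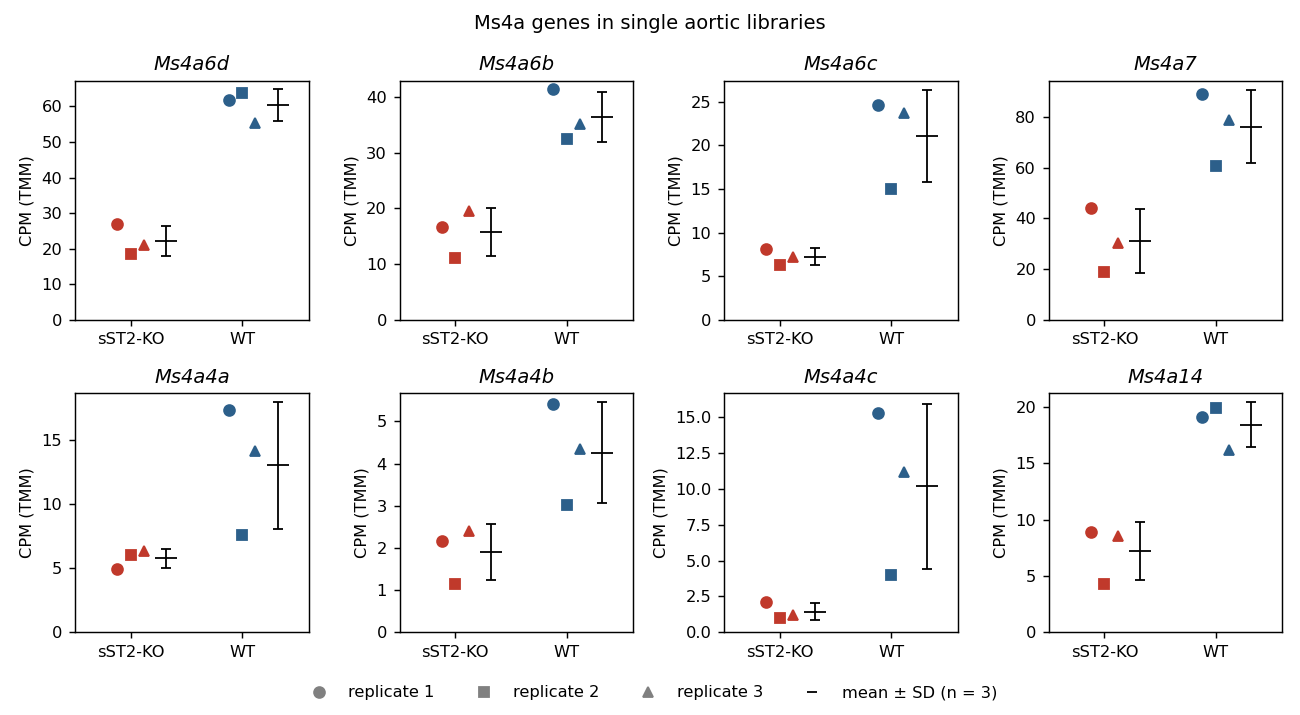
TMM-scaled CPM (linear axis from 0) of each Ms4a gene in the sST2-KO libraries (left, red) and the WT libraries (right, blue); symbols mark the replicate and bars the mean ± SD of 3 libraries. For each of the 8 genes the sST2-KO points lie below the WT points, closest in proportion for Ms4a4a (at most 6.32 CPM in sST2-KO, at least 7.57 CPM in WT).

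Ms4a6d (ENSMUSG00000024679, chromosome 19, 11563968 to 11582213, minus strand, mm39) is known in mouse macrophages as a partner of the receptor VSIG4 in restraining the NLRP3 inflammasome. It had 26.8, 18.6 and 21.0 CPM in sST2-KO replicates 1 to 3 and 61.9, 63.8 and 55.3 CPM in WT replicates 1 to 3, from 315 to 472 counts in sST2-KO and 800 to 1122 in WT. The groups were far apart, with 26.8 CPM in the highest sST2-KO library and 55.3 CPM in the lowest WT library. The log2 change was -1.45 (SE 0.19). It was -1.33 without sST2-KO replicate 2 and -1.40 when WT replicate 3 was left out as well.

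Ms4a6b and Ms4a6c, the close copies of Ms4a6d, showed the same order. Ms4a6b (ENSMUSG00000024677, 11493876 to 11508620, plus strand) is known in mouse T cells, where its protein associates with the co-stimulatory receptor GITR, and in macrophages. It had 16.7, 11.0 and 19.5 CPM in sST2-KO replicates 1 to 3, against 41.4, 32.5 and 35.2 CPM in WT replicates 1 to 3, a difference of -1.21 on the log2 scale, SE 0.25 (adjusted p = 0.339 in edgeR). Ms4a6c (ENSMUSG00000079419, 11446730 to 11459556, plus strand) is used as a marker of mouse classical monocytes. It had 8.18, 6.28 and 7.25 CPM in sST2-KO and 24.6, 15.0 and 23.7 CPM in WT, a difference of -1.54 on the log2 scale, SE 0.27 (adjusted p = 0.330 in edgeR). WT replicate 2 was the lowest WT library for both genes, and its Ms4a6c level was still above every sST2-KO library. The gene BE692007 lies on the opposite strand and overlaps Ms4a6c. It had 477 counts in all libraries together and differed by -1.61 on the log2 scale, SE 0.58 (adjusted p = 0.440 in edgeR). The strand setting of the counting is not given in the sources used here, so reads of Ms4a6c and BE692007 may not be separated.

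Ms4a7 and Ms4a14 lie next to each other at the other end of the members. Ms4a7 (ENSMUSG00000024672, 11298403 to 11313510, minus strand) is used to tell border-associated and monocyte-derived macrophages from microglia in the mouse brain. It had the most counts of the 8 genes, with 44.0, 18.8 and 30.3 CPM in sST2-KO replicates 1 to 3 and 89.2, 60.8 and 78.9 CPM in WT replicates 1 to 3. The difference was -1.30 on the log2 scale, SE 0.32 (adjusted p = 0.381 in edgeR), and -1.04 without sST2-KO replicate 2, which was the lowest of its group. Ms4a14 (ENSMUSG00000099398, 11278613 to 11291818, minus strand) had 8.86, 4.26 and 8.52 CPM in sST2-KO and 19.1, 19.9 and 16.2 CPM in WT. Its difference was -1.35 on the log2 scale, SE 0.33 (adjusted p = 0.374 in edgeR), and -1.08 without sST2-KO replicate 2. For both genes each sST2-KO library was below each WT library.

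Ms4a4a and Ms4a4b had the smallest log2 changes of the 8. Ms4a4a (ENSMUSG00000101389, 11352887 to 11370154, plus strand), the mouse counterpart of human MS4A4A, is known from alternatively activated macrophages. It had 4.94, 5.99 and 6.32 CPM in sST2-KO replicates 1 to 3 and 17.3, 7.57 and 14.1 CPM in WT replicates 1 to 3, a difference of -1.18 on the log2 scale, SE 0.36 (adjusted p = 0.422 in edgeR). WT replicate 2 lay close to the sST2-KO libraries, and the other WT libraries lay well above them. Counts of Ms4a4a were 87, 121 and 95 in sST2-KO and 314, 95 and 236 in WT. Its lack of overlap thus rested on the scaling, with TMM factors of 0.781 for WT replicate 2 and 1.19 for sST2-KO replicate 2. Ms4a4b (ENSMUSG00000056290, 11420917 to 11444419, plus strand) is known as a T cell gene that modulates T cell activation. It had 2.16, 1.14 and 2.39 CPM in sST2-KO and 5.40, 3.03 and 4.35 CPM in WT, from 23 to 98 counts, a difference of -1.17 on the log2 scale, SE 0.44 (adjusted p = 0.442 in edgeR). Summed over 11 T and NK cell genes, the level was 54.2, 11.8 and 24.7 CPM in sST2-KO and 47.3, 23.6 and 35.8 CPM in WT. The groups overlapped in that sum. Cd3e, a subunit of the T cell receptor complex, was the only one of the 10 tested genes of this list whose groups did not overlap. It was lower in sST2-KO, and 10% of all tested genes were lower without overlap. The part of T cell content in the difference in Ms4a4b was not tested.

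Ms4a4c (ENSMUSG00000024675, 11382134 to 11404610, plus strand), a marker of mouse classical monocytes, had the largest change of the 8. It had 2.10, 0.990 and 1.20 CPM in sST2-KO replicates 1 to 3 (37, 20 and 18 counts) and 15.3, 3.99 and 11.2 CPM in WT replicates 1 to 3 (278, 50 and 188 counts). The groups did not overlap, although WT replicate 2 was much lower than the other WT libraries. The mean of sST2-KO was 14.1% of that of WT, and the difference was -2.83 on the log2 scale, SE 0.59 (adjusted p = 0.339 in edgeR). Only 40 of the tested genes had a log2 change as low as this, Ms4a4c included. Leaving out 1 library at a time moved the log2 change between -3.23, without WT replicate 2, and -2.41, without WT replicate 1. WT replicate 2 was also the lowest WT library in the sum of 4 erythroid genes, which was 1055, 53.9 and 575 CPM in sST2-KO and 4009, 680 and 3965 CPM in WT. Among monocyte genes it was the lowest WT library for Plac8 and for Ly6c2, named after its values were seen, at 1.82, 2.97 and 1.53 CPM in sST2-KO and 8.27, 1.91 and 8.41 CPM in WT. It was the highest WT library for Ccr2, Ccl9 and Nr4a1. The part of blood or monocyte content in the difference in Ms4a4c was not tested.

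Levels of different genes can be compared only per length, and the order depended on the length used. Per kilobase of the gene length listed with the counts, Ms4a6d was the most abundant member in both groups, at 12.7 ± 2.45 CPM per kb in sST2-KO and 34.8 ± 2.57 in WT (SD, n = 3 each). Ms4a7 followed with 6.97 ± 2.83 CPM per kb in sST2-KO and 17.1 ± 3.22 in WT. Ms4a4a was next, at 6.88 ± 0.860 CPM per kb in sST2-KO and 15.5 ± 5.93 in WT, and its range overlapped that of Ms4a7 in both groups. Ms4a6c had 3.53 ± 0.463 CPM per kb in sST2-KO and 10.3 ± 2.59 in WT, and Ms4a6b had 3.51 ± 0.961 in sST2-KO and 8.11 ± 1.01 in WT; these again overlapped in both groups. Ms4a14 had 1.77 ± 0.631 CPM per kb in sST2-KO and 4.53 ± 0.489 in WT. Ms4a4c had 0.817 ± 0.338 in sST2-KO, below Ms4a14 in all 3 libraries, and 5.81 ± 3.28 in WT, above it in 2 of 3. Ms4a4b was the lowest in both groups, at 0.216 ± 0.0761 CPM per kb in sST2-KO and 0.485 ± 0.135 in WT. The listed length of Ms4a7 is 4453 bases, but its transcript with the longest coding sequence in GENCODE release M21 has 1576; for Ms4a6b these are 4485 and 1687, and for Ms4a6d 1735 and 1418. By transcript length Ms4a7 came first, at 19.7 ± 8.0 CPM per kb in sST2-KO and 48.4 ± 9.10 in WT, followed by Ms4a6d, at 15.6 ± 3.00 in sST2-KO and 42.5 ± 3.15 in WT, with ranges that overlapped in both groups. Ms4a6b then came before Ms4a4a, at 9.33 ± 2.55 CPM per kb in sST2-KO and 21.6 ± 2.68 in WT. Ms4a4b was last in both groups by either length.

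**Figure D2:**
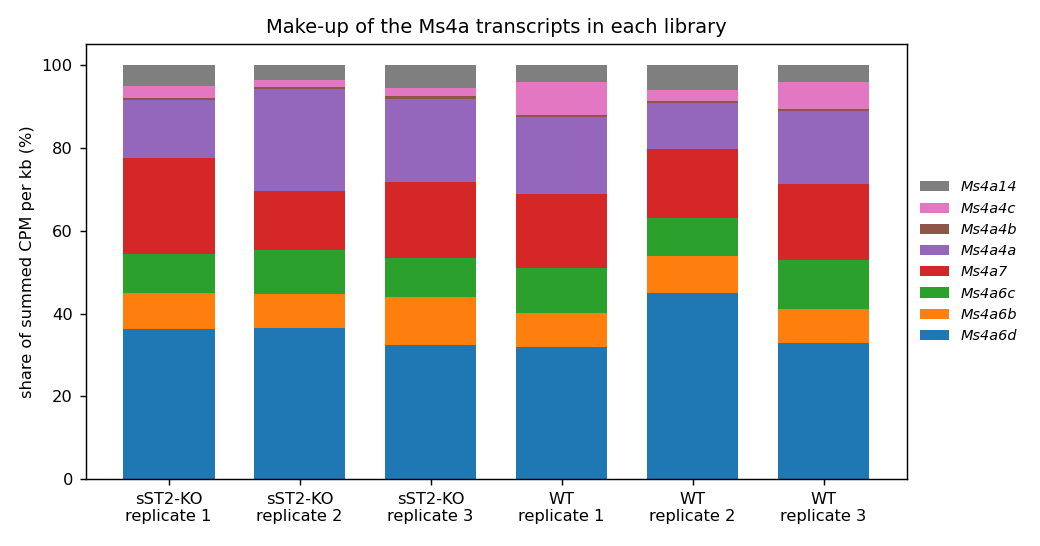
Share of each Ms4a gene in the summed CPM per kb of listed gene length of the 8 genes (%), 1 bar per library, sST2-KO on the left and WT on the right. Ms4a6d takes 32.3 to 36.4% in sST2-KO and 31.9 to 45.1% in WT, and Ms4a4c 1.83 to 2.82% in sST2-KO and 2.79 to 7.84% in WT.

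By listed length, the shares of each of the 8 members in this sum overlapped between the groups. Ms4a6d made up 35.0 ± 2.34% of the summed level per kb in sST2-KO and 36.6 ± 7.31% in WT, and Ms4a7 made up 18.6 ± 4.41% in sST2-KO and 17.7 ± 0.820% in WT (SD, n = 3 each). By transcript length the shares of Ms4a6d were 27.0 ± 2.64% in sST2-KO and 28.7 ± 5.60% in WT, and those of Ms4a7, then the largest, 32.8 ± 6.16% in sST2-KO and 31.97 ± 1.58% in WT. Ms4a4c took, by listed length, 2.82, 1.93 and 1.83% in sST2-KO replicates 1 to 3 and 7.84, 2.79 and 6.62% in WT replicates 1 to 3. Its highest sST2-KO share lay just above the share in WT replicate 2, so the groups overlapped. By transcript length its shares were 1.39 ± 0.294% in sST2-KO and 3.75 ± 1.73% in WT (SD, n = 3 each) and did not overlap, while those of the other 7 members did.

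Markers of macrophages were also lower in sST2-KO. Of 14 core macrophage genes, 13 had negative log2 changes, 0 passed in edgeR, and the median was -0.84. Without sST2-KO replicate 2 and WT replicate 3 the median was -0.71. Of the 14 genes, 8 were lower without overlap, beside 10% of all tested genes. The lowest 3, named after their values were seen, were the Fc receptor gene Fcgr1 at -1.53, Adgre1 (F4/80) at -1.51 and the integrin gene Itgam at -1.34, within the range of the Ms4a members. Ctss, which encodes the lysosomal protease cathepsin S, had 328 ± 113 CPM in sST2-KO and 634 ± 95.9 CPM in WT, and Lyz2, the lysozyme gene and the most abundant of the list, had 2192 ± 898 CPM in sST2-KO and 1925 ± 105 CPM in WT (SD, n = 3 each). The complement genes C1qa and C1qb had log2 changes of -0.55 (SE 0.30) and -0.64 (SE 0.27). Relative to the median of these macrophage genes in the same library, Ms4a6d was at -2.20, -2.22 and -2.01 on the log2 scale in sST2-KO replicates 1 to 3 and at -1.51, -1.37 and -1.67 in WT replicates 1 to 3. The mean difference in this ratio, -0.62, was smaller than the log2 change of the level. The groups did not overlap in it.

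The same ratio was tested for the other 7 members by an exact two-sided permutation test over the 6 libraries, which cannot give a p below 0.1. Ms4a4c differed by -1.78, Ms4a6c by -0.67 and Ms4a7 by -0.53 on the log2 scale, each without overlap between the groups (exact p = 0.1, adjusted p = 0.233 over the 7 members). The share of all tested genes without overlap in this ratio was not computed. Ms4a14 differed by -0.57 (exact p = 0.2), Ms4a6b by -0.40 (exact p = 0.3), Ms4a4b by -0.32 (exact p = 0.4) and Ms4a4a by -0.25 (exact p = 0.5), with overlapping groups. With Csf1r, the receptor that keeps macrophages alive, as the only denominator, the groups also overlapped for Ms4a6c and Ms4a7, at differences of -0.65 and -0.51. The adjusted p-values were then 0.467 to 0.600. With Lyz2 left out of the macrophage list, Ms4a14 too was without overlap, at a difference of -0.64 (exact permutation p = 0.1, adjusted p = 0.175). Which members were without overlap thus depended on the denominator.

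**Figure D3:**
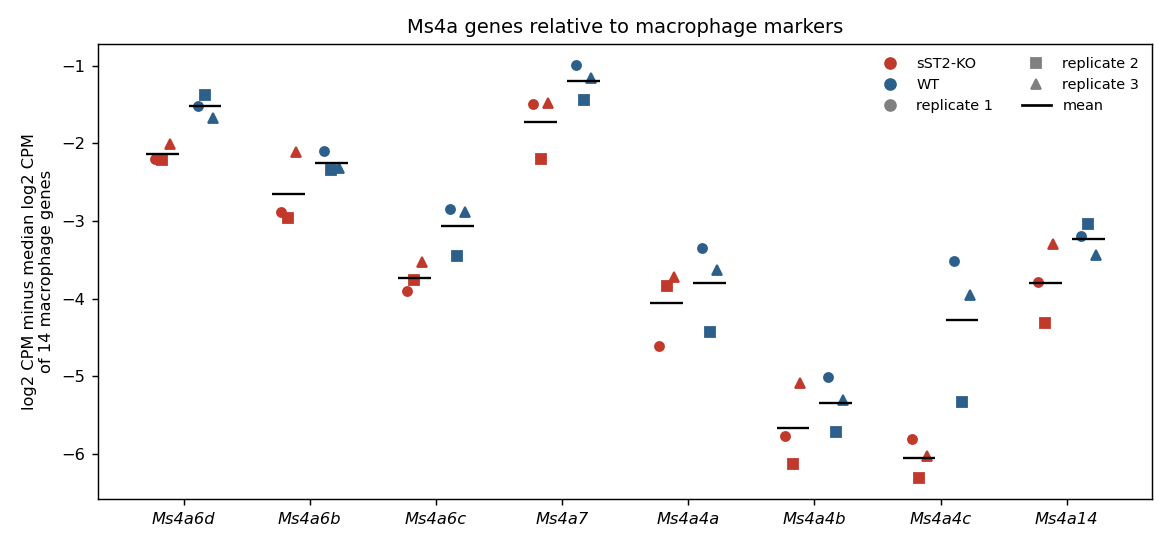
log2 CPM of each Ms4a gene minus the median log2 CPM of 14 macrophage genes in the same library, for sST2-KO (left, red) and WT (right, blue); symbols mark the replicate and lines the mean. With all 14 genes in the median, the groups are apart for Ms4a6c, Ms4a7, Ms4a4c and Ms4a6d, on which the family was picked. They overlap for the other 4 genes. The share of all tested genes that are apart in this ratio was not computed.

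Genes that mark kinds of macrophages and monocytes were lower to a varying degree. In the monocyte list 7 of 8 genes had negative log2 changes and 0 passed in edgeR, with a median of -1.28. That median was -1.10 without sST2-KO replicate 2 and WT replicate 3. Ccl9, a chemokine of myeloid cells, had 62.1 ± 4.14 CPM in sST2-KO and 152 ± 12.6 CPM in WT, and Ccr2, the receptor by which classical monocytes leave the marrow, had 27.5 ± 11.0 CPM in sST2-KO and 79.0 ± 6.72 CPM in WT (SD, n = 3 each). Plac8 had a log2 change of -1.28 (SE 0.44), and Nr4a1, a nuclear receptor of non-classical monocytes that is also an immediate early gene, one of 0.77 (SE 0.47). In the resident macrophage list 7 of 8 genes had negative log2 changes, 0 passed, and the median was -0.78. Without sST2-KO replicate 2 and WT replicate 3 all 8 were negative, with a median of -0.86. The mannose receptor gene Mrc1 had 87.1 ± 27.5 CPM in sST2-KO and 178 ± 31.1 CPM in WT, and F13a1, the clotting factor XIII subunit of tissue macrophages, had 101 ± 23.4 CPM in sST2-KO and 174 ± 25.3 CPM in WT (SD, n = 3 each). Gas6, a ligand of the clearance receptor Mertk, had a log2 change of -0.36 (SE 0.24). Cbr2, also a club cell gene, was the exception, with 3893 CPM in sST2-KO replicate 2 and 121 to 187 CPM in the other 5 libraries.

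Among 8 genes tied to TREM2 and dectin-1, all had negative log2 changes, 0 passed in edgeR, and the median was -0.67. The sign of Apoe rested on WT replicate 3, the library with liver transcripts: its log2 change was -0.40, and 3.34 without that library, which left 7 of 8 negative and a median of -0.65. Clec7a, which encodes dectin-1, had 89.7, 28.8 and 41.7 CPM in sST2-KO replicates 1 to 3 and 89.8, 63.3 and 74.3 CPM in WT replicates 1 to 3, so the groups overlapped. Fcer1g, the adaptor of activating Fc receptors, had 60.6, 32.8 and 42.0 CPM in sST2-KO and 96.2, 82.3 and 83.0 CPM in WT, without overlap. Tyrobp, the adaptor of TREM2, differed by -0.65 on the log2 scale, SE 0.28 (adjusted p = 0.455 in edgeR). Trem2 itself had 72.1, 30.9 and 49.2 CPM in sST2-KO and 94.5, 45.7 and 86.3 CPM in WT, with overlapping groups. Its log2 change was -0.57 (SE 0.38). The 4 genes of this list with the most counts included Apoe, whose values are given above.

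Markers of other cells were examined beside the Ms4a genes. Of 6 B cell genes, Ms4a1 among them, 5 had a negative log2 change. Their median was -0.84 and their sum 10.3 to 36.7 CPM in sST2-KO and 23.9 to 38.3 CPM in WT. Of 5 tested mast cell genes 4 had a positive log2 change. Their median was 0.34, and the sum with Ms4a2 included was 42.3 to 53.7 CPM in sST2-KO and 34.1 to 41.7 CPM in WT. The 7 neutrophil genes summed to 6.65 to 47.4 CPM in sST2-KO and 11.3 to 160 CPM in WT; 2 of them were tested, both with negative log2 changes. The 6 smooth muscle genes had a median of 0.24 and the 4 endothelial genes one of 0.33; both sums overlapped between the groups. Without sST2-KO replicate 2 and WT replicate 3 the medians were -0.27 for B cell, 0.61 for endothelial and 0.26 for smooth muscle genes. Of 10 tested T and NK cell genes 7 had a negative log2 change, and the median was -0.16; without sST2-KO replicate 2 these were 4 of 10 and 0.30. No gene of these lists passed in edgeR. The part of other cell types in the Ms4a differences was not tested.

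The rest of the Ms4a family was set beside the 8 genes. Among 21 Ms4a genes in the table, 11 were tested, and 7 had a count of 0 in all libraries. Ms4a1 (CD20) had 2.27, 0.940 and 0.865 CPM in sST2-KO replicates 1 to 3 and 3.31, 4.15 and 3.52 CPM in WT replicates 1 to 3, from 13 to 60 counts, a difference of -1.42 on the log2 scale, SE 0.49 (adjusted p = 0.435 in edgeR). Ms4a4d, which is 87.87% identical to Ms4a4c in its coding sequence, had 16.2, 24.1 and 15.4 CPM in sST2-KO and 25.1, 33.2 and 21.0 CPM in WT. The groups overlapped, and the difference was -0.51 on the log2 scale, SE 0.27 (adjusted p = 0.499 in edgeR). Ms4a8a had 1.19, 7.62 and 1.40 CPM in sST2-KO and 3.53, 5.74 and 2.86 CPM in WT, with its highest level in the library with airway transcripts. Ms4a15, a lung gene, had counts only in that library, 7 of them. Ms4a2, of mast cells, had 5, 6 and 11 counts in sST2-KO and 6, 6 and 3 in WT. Ms4a3, of granulocyte and monocyte progenitors, had 6, 0 and 0 counts in sST2-KO and 0, 0 and 17 in WT, the 17 in the library with liver transcripts. The related genes Tmem176a and Tmem176b, on chromosome 6, had 490 and 501 CPM in sST2-KO replicate 2 and 52.4 to 193 CPM in the other libraries. Their log2 changes were 1.01 (SE 0.81) and 0.68 (SE 0.60).

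Position along chromosome 19 was described next. The 8 members span 304 kb (11278613 to 11582213, mm39), and 5 further tested genes lie between them. The 5 had negative log2 changes, from -1.61 to -0.39. Among them 2, BE692007 and Gm8369, were lower without overlap between the groups, as were 10% of all tested genes. BE692007 overlaps Ms4a6c; the other 3 are Ms4a4d, Gm38275 and a gene listed only by identifier. Outside the members, within the wider Ms4a cluster and 250 kb on each side, 14 other genes were tested, Ms4a1 and Ms4a8a among them. Of the 14, 9 had a positive and 5 a negative log2 change; the median was 0.08, and 0.12 over the 12 genes outside the family. In 3 of the 14 sST2-KO was higher without overlap, as in 9.09% of all tested genes, and in 1, Ms4a1, it was lower without overlap. Tmem109, an intracellular membrane protein gene, had 117 ± 9.29 CPM in sST2-KO and 77.7 ± 3.75 CPM in WT, and Vps37c, a subunit of the ESCRT-I sorting complex, had 28.4 ± 1.31 CPM in sST2-KO and 21.0 ± 0.391 CPM in WT (SD, n = 3 each), in both cases higher in sST2-KO without overlap. Slc15a3, a lysosomal peptide transporter of macrophages, had a log2 change of -0.95 (SE 0.48) with overlapping groups. Of these 19 genes 0 passed in edgeR.

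**Figure D4:**
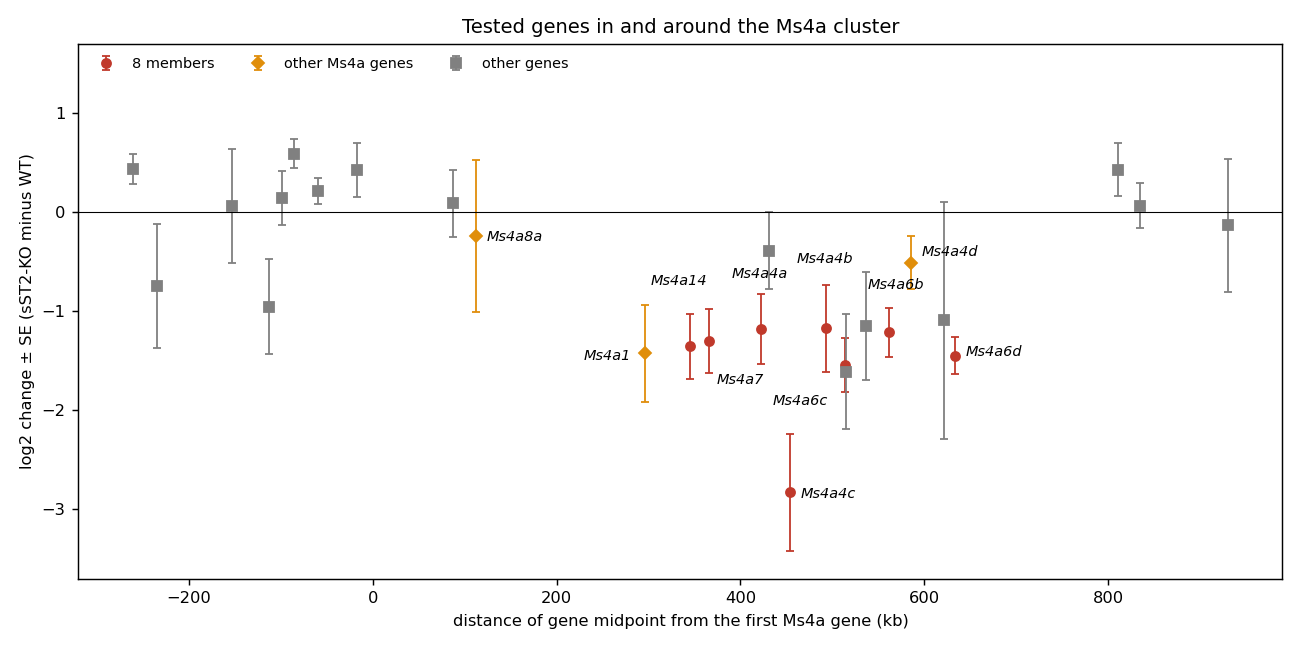
log2 change (sST2-KO minus WT) with its SE for every tested gene in the Ms4a cluster and 250 kb on each side, by distance of the gene midpoint from the start of the first Ms4a gene in kb. The 8 members (red) lie between -2.83 and -1.17. Of the other Ms4a genes (orange), Ms4a1 at -1.42 lies in the range of the members and Ms4a4d and Ms4a8a lie above it; the 12 genes of other families outside the members (grey) lie between -0.95 and 0.59.

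Over the 6 libraries the members varied together. Pearson's r of log2 CPM was positive for all 28 pairs, from 0.69 to 0.99 with a median of 0.93; these points share the libraries and the difference between groups. After subtraction of group means r was positive for 26 of 28 pairs with a median of 0.72. Ms4a6c and Ms4a4c were closest by that measure, at 0.98, and Ms4a6d and Ms4a4a farthest apart, at -0.39. Relative to each gene's mean over all libraries, the median over members was -0.46, -1.14 and -0.52 in sST2-KO replicates 1 to 3 and 0.94, 0.33 and 0.69 in WT replicates 1 to 3 (log2 scale). sST2-KO replicate 2 was thus the lowest library and WT replicate 2 the lowest of its group.

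A pool was taken of 9974 tested protein-coding genes with a mean of at least 10 CPM, leaving out placeholder symbols. In it the pattern most like that of Ms4a6d over the 6 libraries was that of Leprot (r = 0.995), Slc29a3 (0.994), Fcrls (0.993), Slc39a1 (0.992), Tlr13 (0.992) and Fth1 (0.992), members aside. Fcrls, an Fc receptor-like gene of mouse macrophages and microglia, had 35.2, 22.5 and 24.9 CPM in sST2-KO replicates 1 to 3 and 73.7, 66.4 and 64.5 CPM in WT replicates 1 to 3. Tlr13, an endosomal sensor of bacterial ribosomal RNA, had 19.3, 12.1 and 13.1 CPM in sST2-KO and 36.1, 42.3 and 37.9 CPM in WT. Slc29a3, a lysosomal nucleoside transporter, had a log2 change of -0.89, while the ferritin gene Fth1, the zinc transporter gene Slc39a1 and Leprot had log2 changes between -0.33 and -0.29. A high r therefore came with changes of quite different size. Because Ms4a6d separates the groups, genes picked for a high r with it tend to do so too, and nothing is read from their group values. By r of deviations from group means these 6 genes ranked 75 (Fcrls) to 272 (Fth1). Among the members in that pool, r was highest for Ms4a14 (r = 0.952, rank 114) and lowest for Ms4a7 (r = 0.930, rank 199). Ms4a4c, Ms4a4b and Ms4a4a averaged under 10 CPM and were outside it, with r of 0.899, 0.856 and 0.756.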

How the data were processed

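The authors deposited raw read counts per Ensembl gene for all 6 libraries in 1 table, with symbols, lengths and coordinates. Per the submitters' processing notes the genome build was mm39. Aligner, counter and strand setting: not given in the sources used here. Per the labels' protocols, libraries were made from polyadenylated RNA with random primers. Groups were taken from sample titles.

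Counts were tested with edgeR 4.0.16 (R 4.3.3): filterByExpr (minimum count 10, total 15), TMM scaling, quasi-likelihood F test of sST2-KO against WT, Benjamini-Hochberg adjustment over 16377 genes, threshold 0.05. Standard errors were obtained as |log2 change| / sqrt(F). CPM are TMM-scaled; ratios to markers used log2 of CPM plus 0.1. At 3 counts the floor is 0.148 to 0.239 CPM, for counting error only. p-values measure the spread between these libraries, which may be partly technical. Members and gene lists were chosen with earlier results of these data known. Genes were named by a set rule. It took all members and family genes, up to 4 most abundant genes of a list, the 6 most like Ms4a6d and neighbours. Ly6c2, Cd3e, Myh11, Trem2, Fcgr1, Adgre1, Itgam and the genes marking single libraries were named after their values were seen. Where a symbol had several identifiers (882 repeated rows) the most abundant was used. The fit was tested on simulated data with the dispersion of these counts, in 3 runs. It recovered 2.67% of 2-fold and 73.3% of 8-fold changes, with 14 false among 242 calls. Most 2-fold changes would thus be missed at this threshold. No 2 libraries agreed within sampling noise: squared differences were at least 6.55 times it. Alternatives used DESeq2 1.42.0 and limma 3.58.1 (voom). Alignments used Biopython 1.88 and plots matplotlib 3.10.9.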

Additional observations from a re-analysis of the deposited data

How the results depend on the processing

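All 17 alternatives (2 other scalings, 2 other filters, DESeq2, limma-voom, weighted limma-voom, protein-coding genes alone, no mitochondrially encoded genes, a replicate block, and libraries left out singly or as the pair WT replicate 3 and sST2-KO replicate 2) kept a negative log2 change for each of the 8 members. In the 13 of them that gave CPM per library, chosen after seeing the data, all 8 stayed without overlap. Leaving libraries out only removes points and rescales the rest, which can hardly bring about overlap, so nothing is read from those settings. With 1 library left out 13.1 to 17.4% of tested genes were lower without overlap, and with the pair left out 21.9%. DESeq2 called 58 genes higher and 221 lower, 6 members among them, or 5 with Ms4a6d set aside; weighted limma-voom called 8 and 35, 2 members among them, or 1 with Ms4a6d set aside; why these tools call more was not tested. The members' median was -1.33, and -1.57 to -1.15 with 1 library left out. It was -1.16 with the pair left out and -1.39 with the replicate block, which called 0 genes. Replicate numbers did not pair the libraries (correlations of same-numbered deviations 0.159, 0.0435 and -0.101), and not every library correlated best with its own number. Leaving out 1 library gave 0 to 1 genes called lower, the 1 without sST2-KO replicate 2, and 0 higher. The median of the macrophage list was -1.13 without sST2-KO replicate 1 and -0.69 without sST2-KO replicate 3, the extremes with 1 library left out. It was -0.71 with the pair left out. Of the 6 genes most like Ms4a6d, 0 were shared with those by Spearman's rho, where 72 genes tied, and 0 with those by deviations from group means. Ratios to macrophage markers kept their sign with Lyz2 left out or Csf1r alone, but the members without overlap changed. With 18 to 50 counts in 4 libraries, Ms4a4c is limited by depth.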
